A study of Mus musculus with 2 samples.

Results

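The genes described here are the 6 that encode the conventional actins of the mouse, Acta2, Actg2, Actb, Actg1, Acta1 and Actc1. They were taken by symbol from the 43346 Ensembl genes quantified in polyadenylated RNA of the urinary bladder. The series holds 1 group, bladder from C57BL/6J littermates of both sexes, aged 8 weeks, with no treatment or allele named. It holds 2 libraries, biological replicates 1 and 2, whose labels name the same donor entry and do not say how many animals each holds. An SD over them can be technical spread alone, and a single group of 2 libraries allows no test. Gene rows held 99367453 estimated fragments in replicate 1 and 105057347 in replicate 2, and the 6 actin genes took 2.46% and 2.32% of them.

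Actin monomers assemble into the thin filaments along which myosin pulls, and the isoforms are usually grouped by the cells in which they predominate. Acta2 and Actg2 encode the smooth muscle isoforms, Acta2 being known from vascular smooth muscle and myofibroblasts and Actg2 from the muscle of hollow organs such as the gut and the bladder. Actb and Actg1 encode the cytoplasmic isoforms found in all cells, and Acta1 and Actc1 encode the isoforms of the skeletal and heart muscle sarcomere. The isoform proteins are nearly alike and differ most at the start of the chain.

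The first 60 coding bases are shown because this is where the isoform genes differ in length. They were read from the GENCODE M21 transcript that held most of each gene's expression, on mm10, and capitals mark bases that differ from Acta2 after alignment of the whole coding regions.
Acta2 (chr19:34252494-34252553, minus strand): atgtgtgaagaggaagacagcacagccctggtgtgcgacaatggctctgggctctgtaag
Actg2 (chr6:83527382-83527441, minus strand): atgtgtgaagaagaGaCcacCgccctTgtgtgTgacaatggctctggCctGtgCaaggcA
Actb (chr5:142905627-142905686, minus strand): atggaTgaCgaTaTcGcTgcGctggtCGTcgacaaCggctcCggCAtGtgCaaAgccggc
Actg1 (chr11:120348032-120348091, minus strand): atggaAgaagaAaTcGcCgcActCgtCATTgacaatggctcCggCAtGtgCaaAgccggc
Acta1 (chr8:123893638-123893697, minus strand): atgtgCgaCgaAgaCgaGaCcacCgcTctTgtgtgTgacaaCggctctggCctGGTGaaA
Actc1 (chr2:114051972-114052031, minus strand): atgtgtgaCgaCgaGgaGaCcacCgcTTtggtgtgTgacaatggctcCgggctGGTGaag
Acta2, Acta1 and Actc1 encode 377 codons, Actg2 encodes 376, and Actb and Actg1 encode 375, without the stop codon. Over the whole coding region the closest pair of genes was Actb and Actg1, with 88.6% identical bases, ahead of Acta1 and Actc1 with 86.3%. The smooth muscle pair Acta2 and Actg2 shared 84.2%, fewer than Acta2 and Acta1 (85.4%) or Actg2 and Acta1 (85.0%). The lowest identity was that of Acta2 and Actg1, 81.5%.

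The smooth muscle isoforms were the 2 most abundant actin transcripts of the bladder. Levels are given in TPM (transcript abundance scaled for length and for the size of the library), which allows genes to be compared. Acta2 (ENSMUSG00000035783.8, chr19:34241090-34255590 on mm10, minus strand) had 8841 TPM in replicate 1 and 8508 TPM in replicate 2, a mean of 8674 ± 235 TPM (SD, n = 2). It ranked second among protein-coding genes outside the mitochondrial genome. Actg2 (ENSMUSG00000059430.10, chr6:83512905-83536265, minus strand) had 6322 and 5939 TPM (6131 ± 271) and ranked 7 on the same scale. The lower Acta2 value lay above the higher Actg2 value, and the Acta2 to Actg2 ratio of TPM was 1.40 in replicate 1 and 1.43 in replicate 2. Bladder muscle makes both isoforms, and Acta2 is also made by the muscle of vessels and by pericytes. In whole tissue, more cells of a type and more RNA per cell cannot be told apart.

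The cytoplasmic isoforms were far apart in level. Actb (ENSMUSG00000029580.10, chr5:142903115-142906754, minus strand) had 5194 and 4294 TPM (4744 ± 636) and ranked 9 among the same genes. Actg1 (ENSMUSG00000062825.11, chr11:120345690-120348542, minus strand) had 1022 and 771 TPM (897 ± 177) and ranked 98. Actb exceeded Actg1 5.08-fold in replicate 1 and 5.57-fold in replicate 2, so that the gap was much wider than the spread between the libraries. Actb lay closer to Actg2, which exceeded it 1.22-fold in replicate 1 and 1.38-fold in replicate 2.

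The striated muscle isoforms were the lowest and the third lowest of the family, but were abundant by the standard of the tissue. Acta1 (ENSMUSG00000031972.4, chr8:123891769-123894751, minus strand) had 1371 and 1042 TPM (1206 ± 233) and ranked 71. Actc1 (ENSMUSG00000068614.7, chr2:114047282-114053548, minus strand) had 263 and 319 TPM (291 ± 39.9) and ranked 314. The median was 14.4 TPM over the 14533 genes that averaged 1 TPM or more. Acta1 exceeded Actc1 5.22-fold in replicate 1 and 3.26-fold in replicate 2, the widest disagreement between the libraries among the 3 isoform pairs. Replicate 1 held more Acta1 and less Actc1.

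From high to low the order of the levels was Acta2, Actg2, Actb, Acta1, Actg1 and Actc1 in both libraries. Each library value of a gene lay above both values of the next gene in this order. Acta1 and Actg1 had ranges of mean ± SD that overlapped, although Acta1 was higher 1.34-fold in replicate 1 and 1.35-fold in replicate 2. With 2 libraries a likeness of pattern between genes cannot be ranked, so the genes nearest in level are named instead. The protein-coding genes directly above and below were Sprr2a2 and Myl6 for Acta2, Eef1a1 and Rplp1 for Actg2, and Rplp1 and Tpm1 for Actb. They were Rpl31 and Rpl17 for Acta1, Eef2 and Col1a1 for Actg1, and Rab7 and Lsp1 for Actc1.

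**Figure D1:**
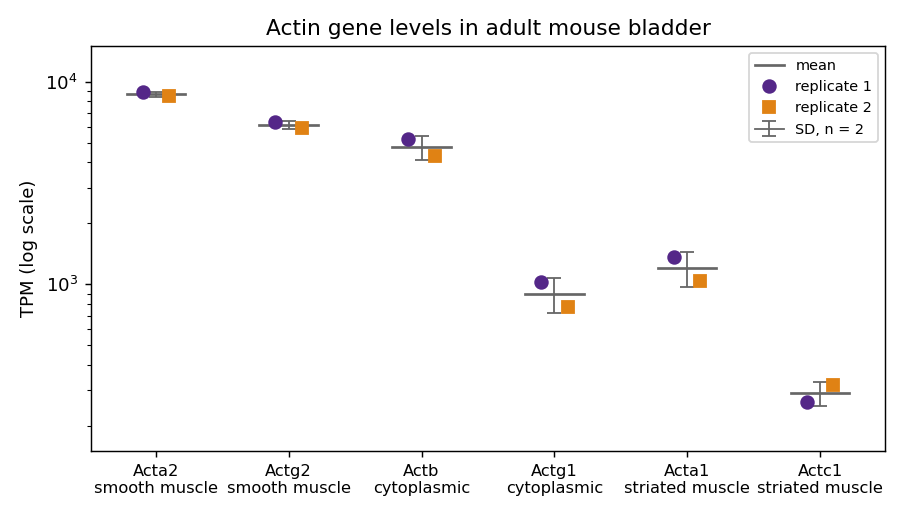
TPM of each actin gene on a log axis, with a circle for replicate 1, a square for replicate 2, and the mean with its SD (n = 2) as lines. Acta2, Actg2 and Actb lie well above Acta1 and Actg1, and Actc1, the lowest, alone is higher in replicate 2.

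As shares of summed actin TPM, Acta2 made up 38.4% in replicate 1 and 40.8% in replicate 2 (39.6% ± 1.7), and Actg2 27.5% and 28.5% (28.0% ± 0.69). Together the smooth muscle isoforms were 65.9% and 69.2% of actin TPM (67.6% ± 2.4). The cytoplasmic isoforms held 27.0% and 24.3% (25.6% ± 1.9), of which Actb alone held 21.6% ± 1.4 and Actg1 4.07% ± 0.53. The striated isoforms held 7.10% and 6.52% (6.81% ± 0.41), with 5.47% ± 0.68 for Acta1 and 1.34% ± 0.27 for Actc1. Acta1 thus held a larger share than Actg1, a gene used by all cells. Summed over the family, actin TPM was 23013 in replicate 1 and 20872 in replicate 2.

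Between the libraries 5 of the 6 genes were lower in replicate 2. The log2 ratio of replicate 2 over replicate 1, taken with a pseudocount of 0.5 TPM, was -0.06 for Acta2, -0.09 for Actg2, -0.27 for Actb, -0.41 for Actg1, -0.40 for Acta1 and 0.28 for Actc1. The median over all genes of at least 1 TPM was 0.08. No actin gene differed by 1.5-fold or more, and none by 2-fold. Of the genes tested, 8.52% and 1.58% did. With 6 genes and shares this small, the absence of calls does not set the actin genes apart from other genes. The widest gaps, 1.32-fold, were those of Actg1 and Acta1, the 2 of 6 genes that passed the smallest fold tried, which 30.9% of the genes tested passed. Some lists of cell type markers moved in sum between the same libraries, and others, such as the 5 fibroblast markers (5197 and 5091 TPM), hardly did. That steady sum hid opposite moves of its members. Col1a1 (1071.24 and 716.31 TPM), Col3a1 and Pdgfra were lower in replicate 2, and Dcn and Lum (323.7 and 433.05 TPM) were higher. Summed TPM in replicate 1 and replicate 2 was 12977 and 10994 for 7 smooth muscle markers, 5453 and 7521 for 8 urothelial markers, and 932 and 1846 for 4 adipocyte markers. Within the smooth muscle list Myh11 (2112.87 and 1170.36 TPM) moved most and Tagln (6438.96 and 6395.92 TPM) least. All 19 smooth muscle, urothelial and adipocyte markers had at least 1 TPM in both libraries, and their part in the actin differences was not tested.

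Most markers of striated muscle were under 1 TPM in the libraries that held Acta1 and Actc1. So were most genes, since 14533 of the 43346 quantified averaged 1 TPM or more. Of 19 skeletal muscle genes, 6 had at least 1 TPM in both libraries, and the list summed to 369 TPM in replicate 1 and 376 TPM in replicate 2, led by the creatine kinase Ckm (261 ± 2.64 TPM) and the troponin T gene Tnnt3 (55.7 ± 0.297 TPM). The myosin heavy chain genes of fast fibres, Myh1 (0.08 and 0.06 TPM) and Myh4 (0 and 0.01 TPM), and the calcium pump gene Atp2a1 (0.4 and 0.17 TPM) were under 1 TPM. A further fast myosin gene, Myh2 (1.43 and 2.19 TPM), was above it, as were the fast troponin genes Tnni2 (26.37 and 32.58 TPM) and Tnnc2 (15.31 and 20.08 TPM). Acta1 alone, at 1371 and 1042 TPM, exceeded the sum of that list. Of 14 heart muscle genes, 5 reached 1 TPM in both libraries, and the list summed to 362 and 275 TPM, led by Tnnt2 (251 ± 65.3 TPM) and Myl4 (57.8 ± 2.02 TPM). The myosin genes Myh6 (0.07 and 0.02 TPM) and Myl2 (0.08 and 0.05 TPM) were near 0, and Myl3 and the transcription factor gene Nkx2-5 were listed at 0 in both. The skeletal sum was nearly the same in both libraries, but most of it was Ckm (263.0 and 259.27 TPM). Of the other skeletal genes at 1 TPM or more in both, Tnnc2, Tnni2 and Myh2 were higher in replicate 2. Tnnt3 and Casq1 hardly moved. Acta1 was higher in replicate 1, and Actc1 was higher in replicate 2. The heart sum was higher in replicate 1 through Tnnt2 (297.67 and 205.3 TPM), and the other 13 heart genes summed to 64.4 TPM in replicate 1 and 69.3 TPM in replicate 2. The part of other muscle in the levels of Acta1 and Actc1 was not tested.

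Markers of other cells that can make actin isoforms of their own, Acta2 in pericytes among them, were present as well. The 5 pericyte markers all reached 1 TPM, with a summed level of 187 and 170 TPM, led by Rgs5 (99.02 and 102.75 TPM) and Pdgfrb (26.1 ± 4.90 TPM). The 4 endothelial markers summed to 214 and 247 TPM, led by Egfl7 (132 ± 34.1 TPM) and Pecam1 (41.1 ± 7.39 TPM). The 5 fibroblast markers summed to 5197 and 5091 TPM, led by Dcn (2525 ± 218 TPM), a collagen-binding proteoglycan, and Col3a1 (1318 ± 111 TPM). Of 6 leukocyte markers, 4 reached 1 TPM in both libraries, led by Lyz2 (331 ± 15.8 TPM) and C1qb (122 ± 13.8 TPM). The smooth muscle markers were led by Tagln (6417 ± 30.4 TPM), an actin-binding protein, and the calponin gene Cnn1 (1756 ± 154 TPM). Upk1a (1977 ± 516 TPM) and Psca (983 ± 264 TPM) led the urothelial markers, and Fabp4 (840 ± 358 TPM) and Cfd (495 ± 258 TPM) the adipocyte markers.

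Genes that make and handle actin monomers were broadly present. For comparison, 14533 of the 43346 genes quantified averaged 1 TPM or more. All 16 genes for folding and maturation, which include the subunits of the chaperonin and of prefoldin, had at least 1 TPM in both libraries, with a median of 69.0 TPM. The highest were Pfdn5 (327 ± 45.6 TPM), a prefoldin subunit, and Cct5 (150 ± 3.92 TPM), a chaperonin subunit. Naa80, which acetylates the start of processed actin, had 26.3 and 18.58 TPM, and Setd3, the actin histidine methyltransferase, had 54.12 and 52.87 TPM. Of 19 genes for monomer binding and turnover, 14 reached 1 TPM in both libraries, led by thymosin beta 4, Tmsb4x (3321 ± 529 TPM), and the severing protein gelsolin, Gsn (3037 ± 115 TPM). The profilin gene Pfn1 (944 ± 4.20 TPM) and the destrin gene Dstn (1018 ± 115 TPM) were next in that list. The list of 19 nucleation genes had 18 at or above 1 TPM in both libraries, with the Arp2/3 subunits Arpc2 (278 ± 25.4 TPM) and Arpc3 (239 ± 46.9 TPM) highest and the formin Diaph3 (0.83 and 0.8 TPM) below. These lists had a median of 64.8 TPM for monomer binding and 28.1 TPM for nucleation, against 14.4 TPM over all genes of at least 1 TPM.

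The other actin-like genes were much lower than the conventional isoforms. Of 18 such genes, 8 had at least 1 TPM in both libraries, 10 were under 1 TPM in both, and 4 of those 10 were listed at 0. Within this list, which leaves out the Arp2/3 subunits Actr2 (68.4 ± 4.24 TPM) and Actr3 (85.8 ± 8.55 TPM) counted under nucleation, the highest were the dynactin subunits Actr1b (93.7 ± 17.6 TPM) and Actr1a (71.6 ± 5.04 TPM). Both were below Actc1, the lowest of the 6. Actbl2, a gene closely related to Actb, had 0.04 and 0.06 TPM. The summed level of the 18 genes was 229 TPM in replicate 1 and 271 TPM in replicate 2.

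Serum response factor binds CArG boxes in the promoters of muscle actin genes, and its coactivators include myocardin and the myocardin-related factors, which respond to the pool of free actin monomers. Srf had 67.24 and 57.43 TPM (62.3 ± 6.94) and Myocd 34.05 and 20.87 TPM (27.5 ± 9.32). Mrtfa (9.41 ± 3.42 TPM) and Mrtfb (8.00 ± 2.74 TPM) were lower, and all 4 genes were higher in replicate 1. Promoter sequences in RefSeq on GRCm38.p6 were matched for 4 of the 6 genes, Acta2, Actg1, Acta1 and Actc1. In each the 250 bases before the RefSeq start were searched for the CArG box, which is palindromic, so that 1 search covers both strands. The promoters of Acta2, the highest member, and Acta1, the highest striated isoform, are shown because they differ in the kind of box they hold, with the boxes in capitals.
Acta2 (chr19:34255374-34255623, minus strand): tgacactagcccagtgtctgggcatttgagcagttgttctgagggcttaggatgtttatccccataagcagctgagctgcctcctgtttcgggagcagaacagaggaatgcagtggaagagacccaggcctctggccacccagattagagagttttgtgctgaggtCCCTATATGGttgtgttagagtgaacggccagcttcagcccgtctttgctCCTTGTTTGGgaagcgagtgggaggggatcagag
Acta1 (chr8:123894776-123895025, minus strand): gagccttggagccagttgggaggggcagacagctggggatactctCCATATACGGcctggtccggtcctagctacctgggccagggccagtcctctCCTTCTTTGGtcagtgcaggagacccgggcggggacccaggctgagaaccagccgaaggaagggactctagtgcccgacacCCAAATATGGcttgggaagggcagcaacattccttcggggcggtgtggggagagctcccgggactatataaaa
Acta1 held an exact box, CCAAATATGG, 73 to 64 bases before the start, and boxes with 1 C or G inside, CCATATACGG and CCTTCTTTGG. Actc1 held an exact box, CCAAATAAGG, 47 to 38 bases before the start, with 3 boxes of the looser kind further upstream. Actg1 held 1 exact box, CCATATATGG, 90 to 81 bases before the start. Acta2 held no exact box in this window but held CCCTATATGG and CCTTGTTTGG, 84 to 75 and 34 to 25 bases before the start. The exact box was in 1.47% of all 32851 promoter windows of this length and the looser kind in 7.24%. A match describes letters only. The annotated Acta2 gene covers most of its window, with both boxes shown. The annotated Actg1 gene covers only the part of its window nearest the start, without the box. The Actc1 window lies wholly within the annotated gene. For these 3 genes the window is therefore not all upstream of transcription as annotated.

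The coding exons of the 6 genes follow a shared plan that separates the 3 pairs. Acta2 and Actg2 have 8 introns, the striated genes 6 and the cytoplasmic genes 5, and the first intron of each lies ahead of the coding region. Coding exons 2, 3 and 4 of Acta2 measure 129, 111 and 85 bases. In Acta1 and Actc1 they are joined as 1 exon of 325 bases, and in Actb and Actg1 the first 2 of them are joined as 1 exon of 240 bases. The exon of 439 bases that follows in Actb and Actg1 spans the Acta2 exons of 85, 162 and 192 bases. The last 2 coding exons measure 182 and 141 bases in all 6 genes.

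**Figure D2:**
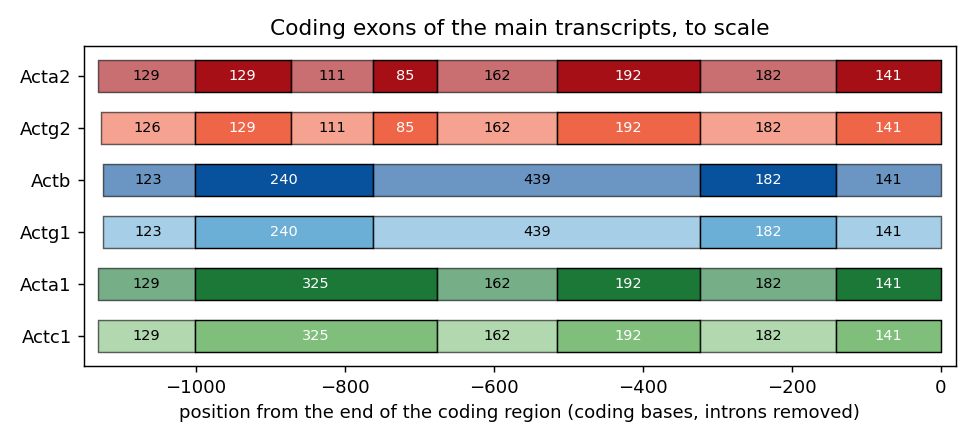
Coding exons of the main transcript of each gene, drawn to scale in coding bases with introns removed and aligned at the end of the coding region, with exon lengths in bases. The smooth muscle genes have 8 coding exons, the striated genes 6 and the cytoplasmic genes 5.

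These introns gave another view of the levels in the same libraries, through reads that cross splice junctions in a table deposited for mm9 over both libraries. It lists 1061777 junctions, and no label says which replicate its R1 and R2 read columns hold. The 6 genes held 4391143 junction reads, 3.85% of all, and the junction with the most reads of any gene was intron 7 of Acta2, with 223586 reads in R1 and 214294 in R2. All 8 Acta2 introns were among the 14 junctions of highest reads, from 213012 reads over intron 3 to 437880 over intron 7. Actg2 introns held 113733 to 220391 reads and Actb introns 54019 to 141172. Acta1 introns held 19742 to 38073 reads, Actc1 introns 5110 to 9977, and Actg1 introns 557 to 3011. The mean per intron was 294295 reads for Acta2, 161354 for Actg2, 96541 for Actb, 30945 for Acta1, 7382 for Actc1 and 1945 for Actg1.

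**Figure D3:**
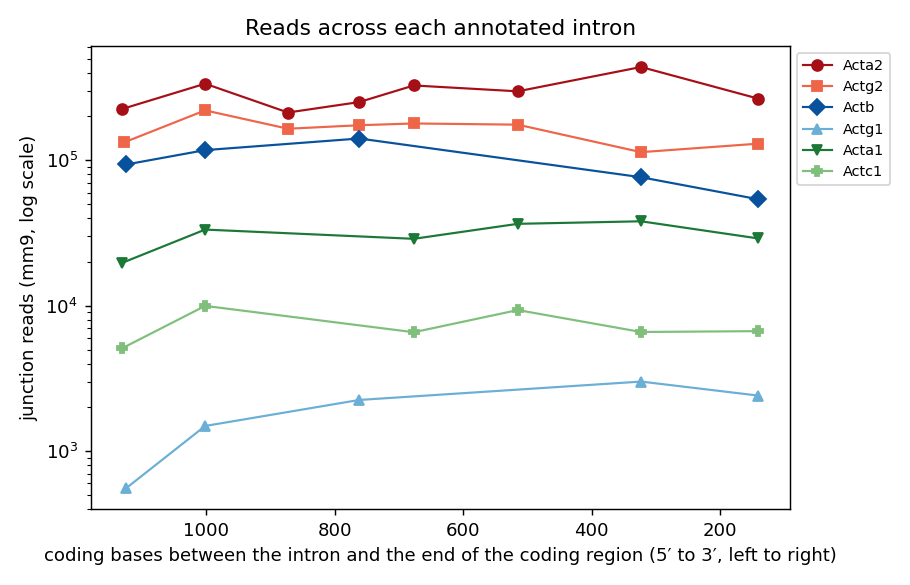
Reads across each annotated intron, summed over R1 and R2, on a log axis against the number of coding bases that follow the intron. Acta2 runs highest, and Actg1 lies below Actc1 at every intron although its TPM was higher than that of Actc1.

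The order of the genes by junction reads matched that by TPM except for Actg1, which dropped below Actc1. Set against estimated fragments, the mean intron had 133 reads per 1000 expected counts for Acta2, 147 for Actg2 and 91.7 for Actb. It had 130 for Acta1 and 123 for Actc1, but 8.78 for Actg1. Expected counts are not divided by transcript length. Multiplied by length in kb, the rates were 237 for Acta2, 193 for Actg2 and 145 for Actb. They were 186 for Acta1, 181 for Actc1 and 15.3 for Actg1, so that Acta2 and Actg2 changed order and Actg1 stayed lowest. By junction reads Actg1 held 0.328% of the family, compared with 4.07% by TPM and 2.99% by the mean RPKM of the mm9 gene table. The share of Actc1 was 1.08% in R1 and 1.40% in R2 by junction reads, 1.34% by TPM and 1.32% by RPKM. Acta2 held 49.7% by junction reads, 39.6% by TPM and 38.5% by RPKM, and Actb 16.3%, 21.6% and 24.7% on the same 3 scales.

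**Figure D4:**
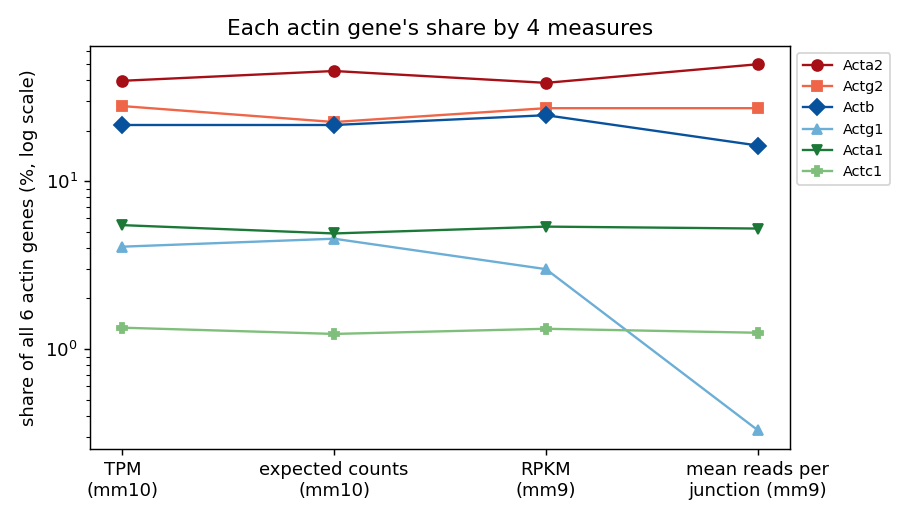
Share of each gene among the 6 actin genes, on a log axis, by TPM, expected counts, mean RPKM and mean reads per junction. The lines stay level for Acta1 and Actc1, and Actg1 falls to 0.328% by junction reads.

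Actg1 was also the member with the largest share of its sequence in annotated transcripts of other genes. Of the 1028 windows of 1 read's length in its coding region, 91.7% were found without a mismatch in GENCODE M21 transcripts of other genes. The share was 1.85% for Actb and 0 for Acta2, Actg2, Acta1 and Actc1. The genes that shared windows with Actg1 were 6 processed pseudogenes, which are intronless copies of a spliced transcript. Gm12715 shared 820 windows and had 64.92 and 37.39 TPM, Gm8399 shared 321 and had 5.11 and 3.35 TPM, and Actg-ps1 shared 86 and had 0.47 and 0.4 TPM. Gm16385, Gm8543 and Gm6375 shared 91, 47 and 24 windows, and had no row among the quantified genes. For Actb the shared windows, 19 in all, lay in the pseudogene Gm15725 (2.57 and 0.35 TPM) and in the Lrrc58 transcripts (23.04 and 19.95 TPM). The posterior SD of the gene's estimated count was 99.6 and 73.6 for Actg1 on 122891 and 98689 counts, and at most 1.54 for the other members.

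Across the introns of Actg1 the shared windows and the reads did not run in parallel. Introns 2, 3 and 5, whose crossing windows were all found elsewhere, had 1491, 2251 and 2414 reads. Intron 4, with 56.1% found elsewhere, had 3011 reads, and intron 1, with none found elsewhere, had the fewest, 557. In units of reads per 1000 expected counts intron 1 of Actg1 stood at 2.51, compared with 82.8 to 121 for intron 1 of the other members. Intron 5 of Actb, the only other junction with shared windows (23.2%), had 51.3 per 1000, the lowest of that gene. Found elsewhere here means an exact match in an annotated transcript. The rest of the genome and copies with mismatches were not searched. The part of shared sequence in the low Actg1 reads was not tested.

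**Figure D5:**
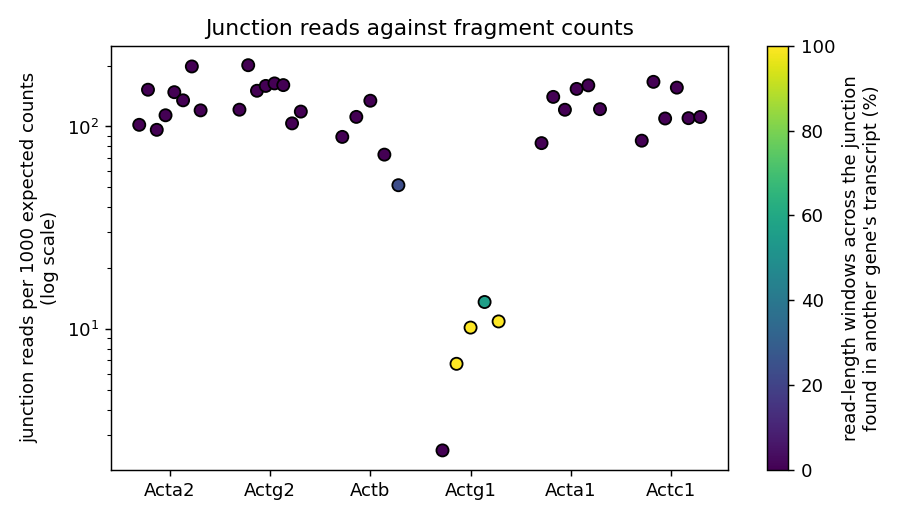
Junction reads per 1000 expected counts on a log axis, 1 point per intron from 5′ to 3′ within each gene, coloured by the percent of read-length windows across the junction that occur in another gene's transcript. All 5 Actg1 points lie between 2.51 and 13.6, and all points of the other genes between 51.3 and 201.

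Actg1 and Actb each have an annotated extra exon in intron 3, after 363 coding bases. The sequences are shown because each brings a stop codon, in capitals, into the frame of the main transcript.
Actg1 (chr11:120347492-120347536, minus strand): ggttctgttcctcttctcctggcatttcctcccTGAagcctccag
Actb (chr5:142905088-142905150, minus strand): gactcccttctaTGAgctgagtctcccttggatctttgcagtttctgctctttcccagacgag
The Actg1 exon has 45 bases and is part of Actg1-206, which is annotated as a target of nonsense-mediated decay, the pathway that degrades messages with an early stop codon. Its in-frame stop would be codon 133. The Actb exon has 63 bases, is part of Actb-206, annotated as a processed transcript, and would place a stop at codon 126.

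Reads supported both exons, at different rates. For Actg1, 1090 and 869 reads in R1 and R2 joined the upstream coding exon to the extra exon, 725 and 482 joined the extra exon to the next, and 1502 and 749 skipped it. Inclusion, the mean of the upstream and downstream junctions as a percent of that mean plus the skipping reads, was 37.7% in R1 and 47.4% in R2 (42.5% ± 6.9, SD, n = 2). For Actb, 931 and 994 reads entered the extra exon, 1276 and 1080 left it, and 68720 and 72452 skipped it, which gave 1.58% and 1.41% (1.5% ± 0.12). In the mm10 transcript tables, Actg1-206 and the retained intron form Actg1-207, which holds the same exon start, had 12.9% of Actg1 TPM in replicate 1 and 13.1% in replicate 2, and Actb-206 had 3.25% and 3.67% of Actb TPM. All windows across the skipping junction of Actg1 were found in pseudogene transcripts and none of those across the inclusion junctions, and the part of this in the 42.5% was not tested. For Actb none of these junctions had windows found elsewhere.

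Of 26 quantified transcripts of the 6 genes, 16 had a mean of at least 1% of their gene's TPM. Acta2-201, Acta1-201 and Actc1-201 each held 100% of their gene. Actg2-201 held 94.7% in replicate 1 and 96.5% in replicate 2, and Actg2-204, a shorter model without a junction of its own, 4.33% and 2.48%. Actb was assigned to Actb-201 (65.4% and 67.2%) and Actb-208 (28.4% and 25.9%), and the retained intron forms Actb-205 and Actb-204 had means of 1.48% ± 0.21 and 1.26% ± 0.099. Actb-208 is a model of 930 bases with no junction that Actb-201 lacks, so junction reads cannot tell them apart. The posterior SD of its estimated count was 541 on 83105 counts in replicate 1.

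Actg1 was spread over the most forms, 6 above 1%. Actg1-202 held 75.1% in replicate 1 and 76.8% in replicate 2. Actg1-207 held 6.77% and 7.87%, Actg1-206 6.09% and 5.25%, and the retained intron forms Actg1-209 and Actg1-208 had 3.27% and 5.65%, and 1.31% and 2.33%. Actg1-204 differed most between the libraries, with 69.73 TPM (6.82%) in replicate 1 and 8.91 TPM (1.16%) in replicate 2. Its estimated counts were 8742 with a posterior SD of 911 in replicate 1, and 1224 with a posterior SD of 268 in replicate 2, and it too has no junction that the main form lacks.

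Unannotated junctions took little of the reads. They were 0.316% of Acta2 junction reads, 0.344% for Actg2, 0.388% for Actb, 0.597% for Acta1, 0.441% for Actc1 and 6.68% for Actg1. Each percent is of the gene's own junction reads, which were few for Actg1, at 8.78 per 1000 expected counts over the mean intron. In reads, unannotated junctions held 922 for Actg1 on 221579 expected counts. They held 7465 for Acta2 on 2212953, 4458 for Actg2 on 1097875 and 1898 for Actb on 1053359. For Acta1 they held 1115 on 238541, and for Actc1 196 on 60055. A single Actg1 junction in the mm9 table, chr11:120207343-120207487, of 145 bases and not marked as canonical there, had 498 reads in R1 and 240 in R2. That was 5.34% of the gene's junction reads, the same low total (95% exact binomial interval 4.97 to 5.73, covering counting error only). A second Actg1 junction, chr11:120207526-120207557 on mm9, had 19 reads (0.138%). In Acta1 the junction chr8:126418412-126418591 on mm9 had 204 reads (0.109%) and shared 1 end with intron 1.

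All 6 genes lie on the minus strand, and the junction reads and contigs listed over them were almost wholly of that strand. The strand of all reads was not counted. Junctions on the opposite strand within the genes held 8 reads for Acta2, 2 for Actg2 and none for the others. The 8 contigs (stretches of continuous coverage on mm9) that overlap the genes were all on the strand of the gene, and the one over Actb ran 5787 bases past the annotated end. Acta1 lies within Gm20388, a long gene on the other strand (34.22 and 37.96 TPM), and Actc1 within A530058N18Rik (listed at 0 in both libraries), also on the other strand. Whether the counting used strand is not given in the sources used here. The microRNA genes Gm23419 and Mir6935, which overlap Actg1, were listed at 0. Both are shorter as annotated than the 200 nucleotides above which RNA was kept, so a 0 says nothing about their expression.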

How the data were processed

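Per the labels, stranded paired-end libraries with reads of 101 bases were made from polyadenylated, ribosomal RNA-depleted RNA over 200 nucleotides, with spike-ins. The authors deposited gene and transcript tables per library on mm10 with GENCODE M4, with expected counts (estimated fragments), TPM (maximum likelihood and posterior mean), each transcript's percent of its gene's TPM and a posterior SD, per the file headers. TPM was scaled over all rows, spike-ins included. On mm9, tables for both libraries together were deposited: gene RPKM and exons (Ensembl release 65), junction read counts, and contigs with a score that was not used. The RPKM columns are not tied to a replicate, so their mean was used. The aligner and the counting tool: not given in the sources used here.

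The libraries summed to 104610979 and 111741334 expected counts. Of these, 5.01% and 5.98% were on rows other than Ensembl genes, which were left out. Of 43346 genes, 42462 matched GENCODE M21 by identifier, which gave symbols, positions and transcript names. Transcript sequences came from M21 and promoters from RefSeq. Introns on mm9 and mm10 were matched by order and length, with no conversion of coordinates. A junction window holds at least 10 bases on each side. Windows were searched on both strands of the transcripts, without mismatches.

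Library ratios used genes that averaged 1 TPM or more, log2 and a pseudocount of 0.5, which understates ratios of low genes. With 1 group no test was made. On counts simulated for this comparison with 14533 genes and counting error only, the 1.5-fold rule recovered 99.0% of 200 genes changed 3-fold. That change lies well past the cut, so the simulation checks the code and says nothing about spread between libraries. Alternatives were the posterior mean, expected counts, RPKM, junction reads, each library alone, other pseudocounts, filters and folds, edgeR 4.0.16 TMM and DESeq2 1.42.0 size factors on rounded expected counts in R 4.3.3. Other steps used Python 3.11.15, Biopython 1.88 and matplotlib 3.10.9. The 6 genes, the lists and the rule for named genes (all 6 members, transcripts of at least 1% of a gene, junctions, overlapping genes, neighbours in level and the 2 highest genes of each list) were chosen with earlier results of these data known. Pfn1, Dstn, Naa80, Setd3, Diaph3, Actbl2, Mrtfa, Mrtfb, Lrrc58, Actr2, Actr3 and the muscle markers beyond the 2 highest were added after their values were seen. Protein sequences were not used here.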

Additional observations from a re-analysis of the deposited data

How the results depend on the processing

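The share of smooth muscle actin was 76.9% by junction reads, against 67.6% by TPM. It stayed within 1 SD of the TPM value by posterior mean TPM (67.5%), expected counts (67.8%) and RPKM (65.7%). The libraries alone gave 65.9% and 69.2%, and each of 2 values lies within 1 SD of their mean by construction. The log2 ratio of Acta2 over Actg2 (0.50 by TPM, 0.48 to 0.52 by library) was 1.01 by expected counts, which are not divided by length, and 0.87 by junction reads. That of Actb over Actg1 (2.41, 2.35 to 2.48) was 2.26 by expected counts, 3.04 by RPKM and 5.63 by junction reads, and the cause was not tested. With the TPM of the 3 measured pseudogenes that share windows added to Actg1, an alternative chosen after seeing the data, it was 2.33. That of Acta1 over Actc1 (2.04, 1.71 to 2.38) lay between 2.00 and 2.07 by posterior mean TPM, expected counts, RPKM and junction reads. Its SD between the libraries, 0.48, was the widest of the 3 ratios. None of these 3 ratios changed sign. The ratio of Actg1 over Actc1, which was not among them, was above 1 by TPM (3.89-fold and 2.42-fold) and below 1 by junction reads (means of 1945 and 7382 per intron). The count of actin genes past 1.5-fold was 0 under every pseudocount, filter and scaling tried and at 2-fold, and 2 (Actg1 and Acta1) at the lowest fold tried, which 30.9% of the genes tested passed. No paired analysis was possible because the series has 1 group. Each SD rests on 2 libraries.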
